A study of Homo sapiens with 9 samples.

Results

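Myeloma cells reach and hold on to the bone marrow through a small set of surface receptors, and 10 genes of that set were followed here across RNA-seq libraries of MM1S, an established human multiple myeloma cell line. The members were taken by symbol from the deposited gene table, and all 10 of 10 were found among its 58387 genes: ITGA4, ITGB1, ITGAL, ITGB2, ITGAM, CXCR4, CD44, ICAM1, NCAM1 and SELPLG. Control cells were infected with lentivirus carrying an empty vector (shEV, 3 libraries), and PHF19_KD cells with lentivirus carrying an shRNA against PHF19 (3 libraries). KD_Rescued cells were PHF19_KD cells that also expressed PHF19 resistant to that shRNA (2 libraries). The series' design text describes stable expression, all groups were kept in regular medium, and the controls carried the virus too. The labels name no shRNA sequence and state no clone, though the 3 PHF19_KD libraries share a name that begins with MMCL2. PHF19 is a Polycomb-like protein that helps Polycomb repressive complex 2, the writer of histone H3 lysine 27 methylation, to bind chromatin. For 1 further library the title says knockdown and the shRNA label says shRNA-resistant PHF19, so it is shown apart below as the disputed library. Its library name begins with MMCL11, while the KD_Rescued names begin with MMRESWT.

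Integrins are pairs of an α and a β chain, and neither chain reaches the cell surface in quantity without its partner. The α4 chain (ITGA4) pairs with β1 (ITGB1) as VLA-4, which binds VCAM-1 and fibronectin in marrow stroma, or with β7. The αL chain (ITGAL) and the αM chain (ITGAM) pair with β2 (ITGB2) as LFA-1 and Mac-1, and both bind ICAM-1 (ICAM1). CXCR4 is the receptor for the stromal chemokine CXCL12 and directs cells to the marrow. SELPLG encodes PSGL-1, a mucin that carries the selectin-binding sugars used for rolling on endothelium, CD44 binds hyaluronan, and NCAM1 (CD56) is a homophilic adhesion molecule found on many myelomas.

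Libraries held 16974728 to 22739741 counts in shEV, 10609798 to 12024913 in PHF19_KD, 23644123 to 23751353 in KD_Rescued and 10164112 in the disputed library. Depth therefore moved with the groups, and so did the share of counts from mitochondrially encoded genes, at 2.84% to 3.32%, 9.02% to 10.0%, 4.99% to 5.18% and 5.56% in the same order. Their part in the results was not tested, except that the fits were repeated without mitochondrial genes. Both KD_Rescued libraries came from lane 2 and all others from lane 6, and a lane effect cannot be told apart from the rescue. Levels are given as normalised CPM, a count divided by its library's scaled total. PHF19 stood at 103 to 124 CPM in shEV, 26.0 to 27.5 in PHF19_KD, 218 to 220 in KD_Rescued and 63.6 in the disputed library. All 8 plasma cell markers were present, with a summed level of 4277 to 4338 CPM in PHF19_KD and 4388 to 4458 CPM in shEV. Single markers moved in opposite directions within that sum: 3 were called higher and 3 lower in PHF19_KD, with CD38 at 148 CPM in shEV and 332 in PHF19_KD and TNFRSF17 at 248 and 118. Of 7 monocyte markers none passed the filter on low counts, and their summed level was 0.136 to 0.455 CPM in shEV and 0.248 to 0.520 CPM in PHF19_KD, with FCGR3A and S100A8 at 0 counts throughout. In these bulk samples fewer cells expressing a gene and less RNA per cell cannot be told apart. No label states whether the replicates of a group were grown separately, so the p-values rest on a spread that may be only technical.

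The depletion of PHF19 came with lower CXCR4 and ITGA4 and with higher ICAM1 and ITGAM. CXCR4 was reduced to 35.9% of its control level and ITGA4 to 64.2%, while ICAM1 reached 220% and ITGAM 444%. Smaller shifts were seen in CD44, which was lower, and in ITGAL, ITGB1, NCAM1 and SELPLG, which were higher. ITGB2 was close to 0 in every library. Fold changes are from a fit over the 8 libraries with undisputed labels (edgeR quasi-likelihood test), and adjusted p-values are Benjamini-Hochberg values over all 16600 genes that passed the filter. A gene with an adjusted p below 0.05 is said to be called. Of the 10 members 9 were tested in PHF19_KD against shEV, and all 9 were called, 6 higher and 3 lower. This count has to be read against the whole table, in which 69.1% of genes were called, 34.9% as higher and 34.2% as lower. The 3 and 3 libraries did not overlap for any of the 9 tested members, and they did not overlap for 71.9% of all tested genes. A change of at least 2-fold was found for 3 of 9 members, against 26.4% of all genes. The median log2 fold change of the 9 members was 0.32 and that of all tested genes 0.03.

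**Figure D1:**
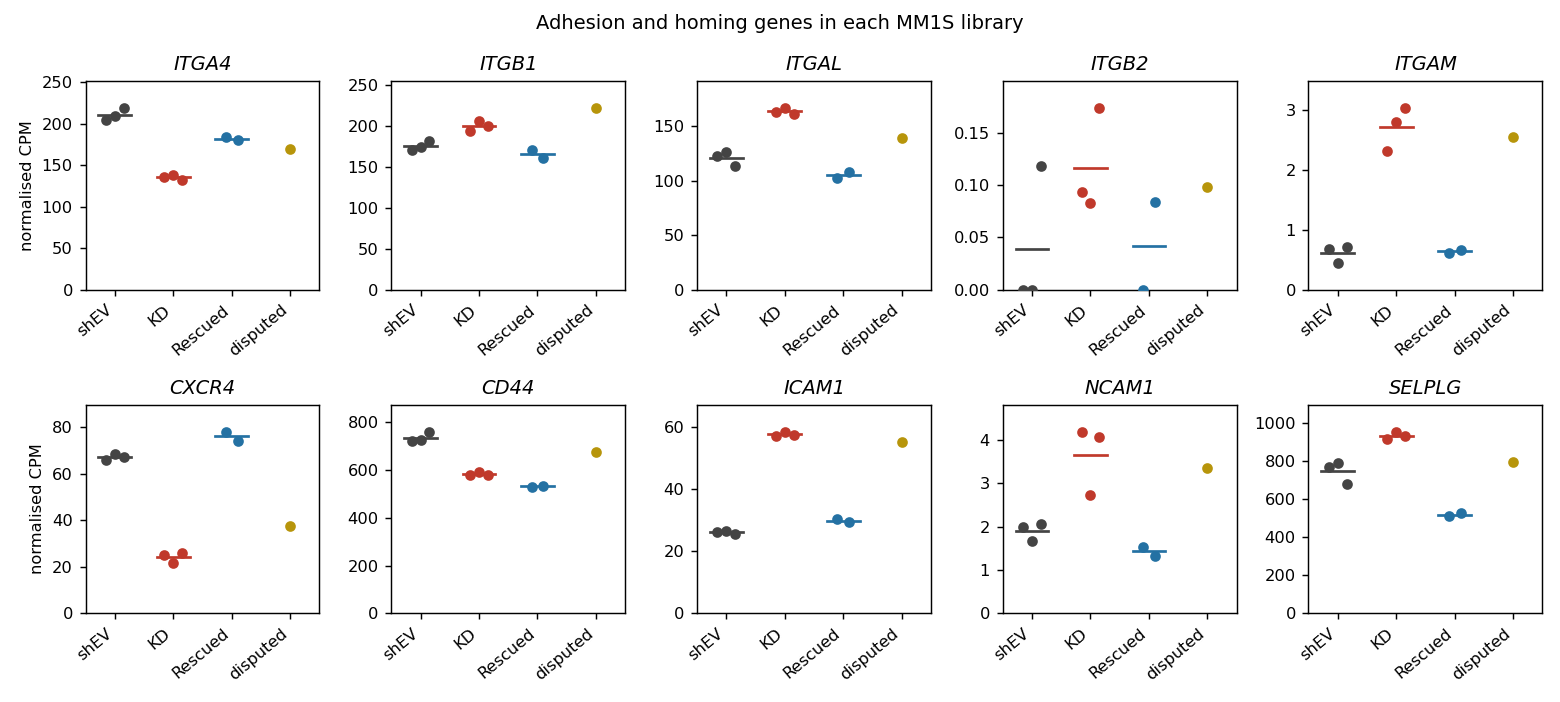
Normalised CPM of the 10 members, with 1 point per library, a bar at the mean of each group with more than 1 library, and linear vertical axes that start at 0. CXCR4 lies at 65.8 to 68.4 CPM in shEV and at 21.4 to 26.0 CPM in PHF19_KD (KD), and ITGB2 stays below 0.18 CPM in every library.

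CXCR4 gave the clearest fall. Its levels were 65.8, 68.4 and 67.2 CPM in shEV, 24.9, 21.4 and 26.0 CPM in PHF19_KD, 77.9 and 74.1 CPM in KD_Rescued, and 37.6 CPM in the disputed library. Every PHF19_KD library was thus below every other library. On the log2 scale CXCR4 changed by -1.48 ± 0.07 (SE) in PHF19_KD against shEV (edgeR adjusted p = 2.61e-09) and by 1.66 ± 0.07 in KD_Rescued against PHF19_KD (edgeR adjusted p = 2.18e-09). Rescued cells held 113% of the control level. That small excess was called (log2 fold change 0.18 ± 0.07, edgeR adjusted p = 0.0481). The call was lost with DESeq2 (adjusted p = 0.254), with RLE scaling, without a filter and without mitochondrial genes. It was also lost with only KD_Rescued and shEV in the fit, and with the disputed library counted in either group. Leaving out any of 6 single libraries removed it too, which were shEV 1 or 2, PHF19_KD 1 or 3 and KD_Rescued 1 or 2.

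ICAM1 moved the opposite way. The levels were 26.4, 26.6 and 25.6 CPM in shEV, 57.2, 58.5 and 57.5 CPM in PHF19_KD, 30.3 and 29.6 CPM in KD_Rescued, and 55.3 CPM in the disputed library. Replicates were close together and the 3 groups did not overlap. ICAM1 was 2.20-fold higher in PHF19_KD than in shEV (log2 fold change 1.14 ± 0.05, SE, edgeR adjusted p = 2.52e-09) and came down by a factor of 1.93 in KD_Rescued against PHF19_KD (-0.95 ± 0.06, edgeR adjusted p = 4.01e-08). It was still 1.14-fold above shEV after rescue (0.19 ± 0.06, edgeR adjusted p = 0.0224), a call that was lost with DESeq2 (adjusted p = 0.245), with RLE scaling, without a filter, with only those groups in the fit and without either KD_Rescued library (adjusted p = 0.161 and 0.0975). That call was also lost with the disputed library counted in either group. ICAM1 had fractional counts in 7 of 9 libraries, which arise where reads are divided among genes.

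The promoters of the genes that changed most are shown because they differ in CpG content, a property by which Polycomb target promoters are often described, as background. They are the 250 bases before the start site in the RefSeq table (GRCh38.p14), 5′ to 3′ on the gene's strand, with every CpG in capitals. The table held 6 of the 10 members. CXCR4 has 3 starts there and ITGB1 has 2, and for both the outermost was taken. The windows lie at chr2:136118150-136118399, minus strand (CXCR4), chr19:10270870-10271119, plus strand (ICAM1) and chr16:31259725-31259974, plus strand (ITGAM).
CXCR4: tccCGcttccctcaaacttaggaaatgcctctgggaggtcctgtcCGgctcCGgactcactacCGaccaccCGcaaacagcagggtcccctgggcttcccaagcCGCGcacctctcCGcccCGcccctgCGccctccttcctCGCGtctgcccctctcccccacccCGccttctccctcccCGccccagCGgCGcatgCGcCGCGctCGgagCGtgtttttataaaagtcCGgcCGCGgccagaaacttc
ICAM1: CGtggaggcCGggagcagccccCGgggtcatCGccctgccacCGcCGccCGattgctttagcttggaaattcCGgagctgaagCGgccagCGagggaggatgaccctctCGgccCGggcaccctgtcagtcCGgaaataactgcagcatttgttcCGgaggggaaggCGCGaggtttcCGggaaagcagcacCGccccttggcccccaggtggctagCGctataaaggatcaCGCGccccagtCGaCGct
ITGAM: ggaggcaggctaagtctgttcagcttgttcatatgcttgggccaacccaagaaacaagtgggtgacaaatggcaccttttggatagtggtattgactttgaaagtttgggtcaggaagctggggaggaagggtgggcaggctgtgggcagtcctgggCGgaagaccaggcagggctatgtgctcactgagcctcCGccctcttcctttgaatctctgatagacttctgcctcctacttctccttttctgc

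The CXCR4 window, from the gene that fell most, held 24 CpGs and the ICAM1 window 23, and a median of 11 was found over 35116 windows of that length. The ITGAM window, from the gene that rose most, held 2. Among the other matched members, the windows of ITGB1, ITGA4 and CD44 held 32, 25 and 15. The windows of the inner starts held 12 and 8 CpGs in CXCR4 and 4 in ITGB1, so the count depends on the start taken. Windows above the median were thus found both among members that were lower (ITGA4, CD44) and for ICAM1, which was higher, while for ITGB1 and CXCR4 this held or not by start. In the windows of the outermost starts, searched on both strands, the letters GGAANNTCC, which resemble an NF-kB site, were found in ICAM1 alone among the 6 matched members, 186 bases before the start, and in 3.84% of all windows. GAGGAA, the core of sites for the myeloid factor PU.1, was present in ITGAM, ITGB1 and CXCR4 and in 23.57% of all windows. The RUNX core TGTGGT was in none of the 6 and in 10.98% of all windows. TATAAA was in CXCR4 and ICAM1, 30 bases before the start, and in 10.72% of all windows. A match of letters is a description and not a measured site.

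The chains of VLA-4 did not move together. ITGA4 stood at 204, 209 and 218 CPM in shEV, 136, 137 and 132 CPM in PHF19_KD, 184 and 180 CPM in KD_Rescued, and 170 CPM in the disputed library. Its groups did not overlap, with the rescued cells between the others. ITGA4 changed by -0.64 ± 0.04 on the log2 scale in PHF19_KD against shEV (edgeR adjusted p = 6.33e-08) and by 0.43 ± 0.05 in KD_Rescued against PHF19_KD (edgeR adjusted p = 6.74e-06). The rescued level was 86.5% of the control, and that difference was called (-0.21 ± 0.05, edgeR adjusted p = 0.00406). The call was lost without KD_Rescued replicate 2 and with the disputed library counted as PHF19_KD (edgeR adjusted p = 0.0765 for the latter).

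ITGB1 levels were 171, 174 and 182 CPM in shEV, 194, 206 and 200 CPM in PHF19_KD, 171 and 161 CPM in KD_Rescued, and 222 CPM in the disputed library. Here the PHF19_KD libraries were above both other groups. ITGB1 was 1.14-fold higher in PHF19_KD than in shEV (log2 fold change 0.19 ± 0.05, edgeR adjusted p = 0.00277) and changed by -0.27 ± 0.05 in KD_Rescued against PHF19_KD (edgeR adjusted p = 0.000611). The call against shEV was lost without a filter (adjusted p = 0.167) and with the disputed library counted as KD_Rescued (adjusted p = 0.153). KD_Rescued and shEV overlapped (-0.08 ± 0.05, edgeR adjusted p = 0.241). ITGB1 counts were fractional in all 9 libraries, and with which other genes its reads may have been divided was not tested.

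The ratio of the counts of both chains within a library does not depend on any scaling between libraries. It was chosen after the separate values had been seen. For each ITGB1 count there were 1.19, 1.20 and 1.20 ITGA4 counts in shEV, 0.699, 0.667 and 0.660 in PHF19_KD, 1.07 and 1.12 in KD_Rescued, and 0.764 in the disputed library. The mean was 1.20 ± 0.00402 in shEV (SD, n = 3), 0.675 ± 0.0211 in PHF19_KD (SD, n = 3) and 1.09 ± 0.0325 in KD_Rescued (SD, n = 2). PHF19_KD was thus at 56.4% and KD_Rescued at 91.4% of the control ratio, without overlap between the groups.

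**Figure D2:**
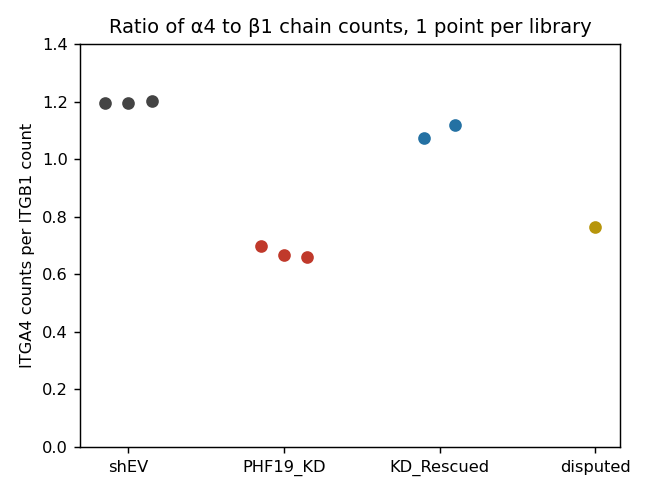
ITGA4 counts per ITGB1 count, 1 point per library, in shEV, PHF19_KD, KD_Rescued and the disputed library. The shEV libraries lie at 1.19 to 1.20, the PHF19_KD libraries at 0.660 to 0.699 and the KD_Rescued libraries at 1.07 and 1.12.

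The partner of αL and αM was nearly absent. ITGB2 had 0, 0 and 2 counts in the shEV libraries, 1, 1 and 2 in PHF19_KD, 0 and 2 in KD_Rescued and 1 in the disputed library, and it did not pass the filter. Its 9 counts over 9 libraries amount to 0.0595 CPM (exact Poisson 95% interval 0.0272 to 0.113 CPM, for counting error only). The 2 counts of shEV give 0.0340 CPM (interval 0.00412 to 0.123) and the 4 counts of PHF19_KD 0.116 CPM (interval 0.0317 to 0.298), and these intervals overlap, so a difference was not detectable at this depth.

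ITGAL was abundant all the same. Its levels were 123, 126 and 114 CPM in shEV, 162, 166 and 161 CPM in PHF19_KD, 102 and 108 CPM in KD_Rescued, and 139 CPM in the disputed library. The highest group was PHF19_KD, and no groups overlapped. ITGAL changed by 0.43 ± 0.05 in PHF19_KD against shEV (log2 and SE, edgeR adjusted p = 7.65e-06), by -0.64 ± 0.06 in KD_Rescued against PHF19_KD (edgeR adjusted p = 9.41e-07) and by -0.20 ± 0.06 in KD_Rescued against shEV (edgeR adjusted p = 0.0126). Without KD_Rescued replicate 1 the last of these was no longer called (adjusted p = 0.125). That call was also lost with the disputed library counted in either group. Counts of ITGAL were fractional in all 9 libraries.

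ITGAM showed the largest fold among the members at a very low level. In whole numbers it had 15, 9 and 12 counts in shEV (0.678, 0.455 and 0.708 CPM), 25, 34 and 35 in PHF19_KD (2.32, 2.81 and 3.04 CPM), 15 and 16 in KD_Rescued (0.620 and 0.668 CPM) and 26 in the disputed library (2.56 CPM). The PHF19_KD values were all above 2.3 CPM, and shEV and KD_Rescued overlapped. The log2 fold change was 2.14 ± 0.27 in PHF19_KD against shEV (edgeR adjusted p = 1.84e-05), -2.07 ± 0.30 in KD_Rescued against PHF19_KD (edgeR adjusted p = 6.97e-05) and 0.08 ± 0.33 in KD_Rescued against shEV (edgeR adjusted p = 0.883). ITGAM is also a myeloid marker, and the monocyte markers listed above stayed near 0 in all groups.

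SELPLG and CD44 held the top places among the members in level per kb, as given below. SELPLG stood at 767, 792 and 679 CPM in shEV, 914, 953 and 933 CPM in PHF19_KD, 510 and 528 CPM in KD_Rescued, and 794 CPM in the disputed library. Rescued cells did not return to the control level of SELPLG but went below it, to 69.5%. The log2 fold changes were 0.32 ± 0.05 in PHF19_KD against shEV (edgeR adjusted p = 0.000180), -0.85 ± 0.06 in KD_Rescued against PHF19_KD (edgeR adjusted p = 1.66e-07) and -0.52 ± 0.06 in KD_Rescued against shEV (edgeR adjusted p = 4.77e-05). With the disputed library counted as KD_Rescued, the first and the last of these were not called (adjusted p = 0.0968 and 0.223).

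CD44 was lower in the knockdown and was not higher again after rescue. Its levels were 722, 725 and 760 CPM in shEV, 579, 594 and 581 CPM in PHF19_KD, 530 and 534 CPM in KD_Rescued, and 674 CPM in the disputed library. The rescued libraries were the lowest of all. CD44 changed by -0.33 ± 0.04 in PHF19_KD against shEV (log2 and SE, edgeR adjusted p = 7.96e-06), by -0.14 ± 0.04 in KD_Rescued against PHF19_KD (edgeR adjusted p = 0.0142) and by -0.47 ± 0.04 in KD_Rescued against shEV (edgeR adjusted p = 9.04e-06). The call between KD_Rescued and PHF19_KD was lost without a filter (adjusted p = 0.209) and without either KD_Rescued library (adjusted p = 0.120 and 0.0904). With the disputed library counted as KD_Rescued, that call and the call of KD_Rescued against shEV were lost as well. A gene count does not separate the splice variants of CD44, and its counts were fractional in 8 of 9 libraries.

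NCAM1 was at a low level, above only ITGAM among the tested members. There were 44, 33 and 35 counts in shEV (1.99, 1.67 and 2.06 CPM), 45, 33 and 47 in PHF19_KD (4.19, 2.73 and 4.08 CPM), 37 and 32 in KD_Rescued (1.54 and 1.34 CPM) and 34 in the disputed library (3.35 CPM). Raw counts were similar in shEV and PHF19_KD, while the PHF19_KD libraries were smaller in total. The log2 fold change was 0.94 ± 0.21 in PHF19_KD against shEV (edgeR adjusted p = 0.00200), -1.34 ± 0.24 in KD_Rescued against PHF19_KD (edgeR adjusted p = 0.000434) and -0.40 ± 0.25 in KD_Rescued against shEV (edgeR adjusted p = 0.213).

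**Figure D3:**
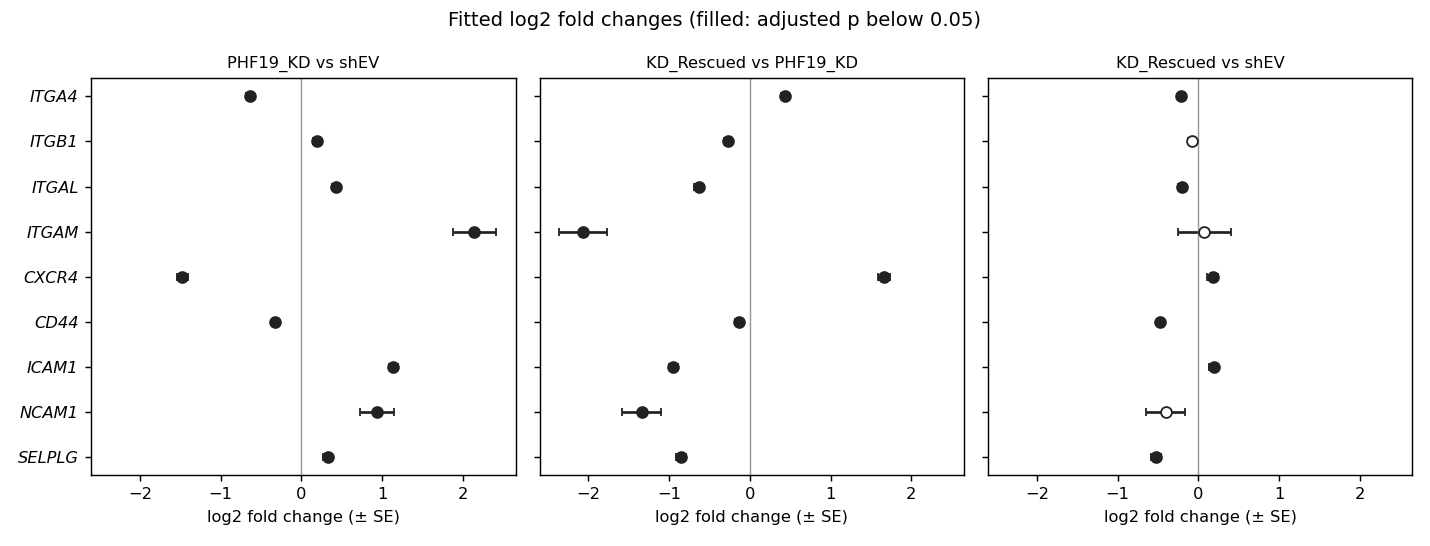
Fitted log2 fold changes with their standard errors for the 9 tested members in the 3 comparisons, with filled points where the adjusted p was below 0.05. CXCR4 (-1.48 and 1.66) and ICAM1 (1.14 and -0.95) lie on opposite sides of 0 in the first and second panels, and CD44 (-0.33 and -0.14) lies below 0 in both.

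When PHF19 was returned, 9 of 9 tested members were called against PHF19_KD, 2 higher and 7 lower, beside 63.4% of all genes (33.9% higher and 29.5% lower). The members higher after rescue were CXCR4 and ITGA4. The libraries did not overlap for 9 of 9 members and for 77.2% of all genes, and 3 of 9 members changed at least 2-fold, against 23.2% of all genes. The median log2 fold change was -0.64 for the members and 0.03 for all genes. With the disputed library counted as KD_Rescued, the number of members called dropped to 5, and the calls of ITGB1, ITGAM, CD44 and NCAM1 were lost (adjusted p = 0.270, 0.0750, 0.623 and 0.0635). Both comparisons share the PHF19_KD libraries.

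By fitted values, with no test between them, CD44 and SELPLG differed more from the controls after rescue (-0.47 and -0.52 on the log2 scale) than in the knockdown (-0.33 and 0.32), and the other 7 tested members differed less. In KD_Rescued against shEV 6 of 9 tested members were called, 2 higher (CXCR4 and ICAM1) and 4 lower (ITGA4, ITGAL, CD44 and SELPLG), beside 39.8% of all genes, 20.7% higher and 19.1% lower. No member changed at least 2-fold, against 7.33% of all genes. The libraries did not overlap for 7 of 9 members and for 61.8% of all genes. The median log2 fold change was -0.20 for the members and 0.02 for all genes. Leaving out 1 library gave 3 to 6 called members, with 3 without either KD_Rescued replicate 1 or KD_Rescued replicate 2. Counting the disputed library as PHF19_KD gave 2 (CD44 and SELPLG), and counting it as KD_Rescued gave 1 (ITGA4).

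For the disputed library 6 of the 9 tested members lay between the shEV and the PHF19_KD libraries. ITGAM and NCAM1 lay within the PHF19_KD range, and ITGB1 was above every other library. None of the 9 tested members lay within the range of shEV or of KD_Rescued. The shares of all tested genes in these positions were not computed, so these counts do not set the members apart.

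Levels of different genes were compared per kb of the longest protein-coding transcript in GENCODE 29, an annotation that may differ from the authors'. In shEV the order was SELPLG (331 ± 26.1 CPM per kb), CD44 (128 ± 3.73), ITGA4 (50.2 ± 1.73), ITGB1 (46.4 ± 1.44), CXCR4 (35.4 ± 0.681), ITGAL (23.2 ± 1.27), ICAM1 (8.06 ± 0.162), NCAM1 (0.316 ± 0.0348), ITGAM (0.129 ± 0.0291) and ITGB2 (0.0124 ± 0.0214), all as SD over n = 3. In PHF19_KD the order changed in the middle. ITGB1 (52.9 ± 1.62 CPM per kb) came before ITGA4 (32.3 ± 0.645) and ITGAL (31.3 ± 0.501), and ICAM1 (17.8 ± 0.205) came before CXCR4 (12.7 ± 1.27). NCAM1 (0.606 ± 0.134 CPM per kb) and ITGAM (0.574 ± 0.0769) differed by less than their spread there. In KD_Rescued ITGB1 (44.0 ± 1.86 CPM per kb) and ITGA4 (43.4 ± 0.550) also differed by less than their spread, followed by CXCR4 (40.1 ± 1.41). With the median length of the coding transcripts in place of the longest, CD44 came before SELPLG in shEV, ITGB1 before ITGA4 and ITGAL before CXCR4, so these positions rest on the length used.

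**Figure D4:**
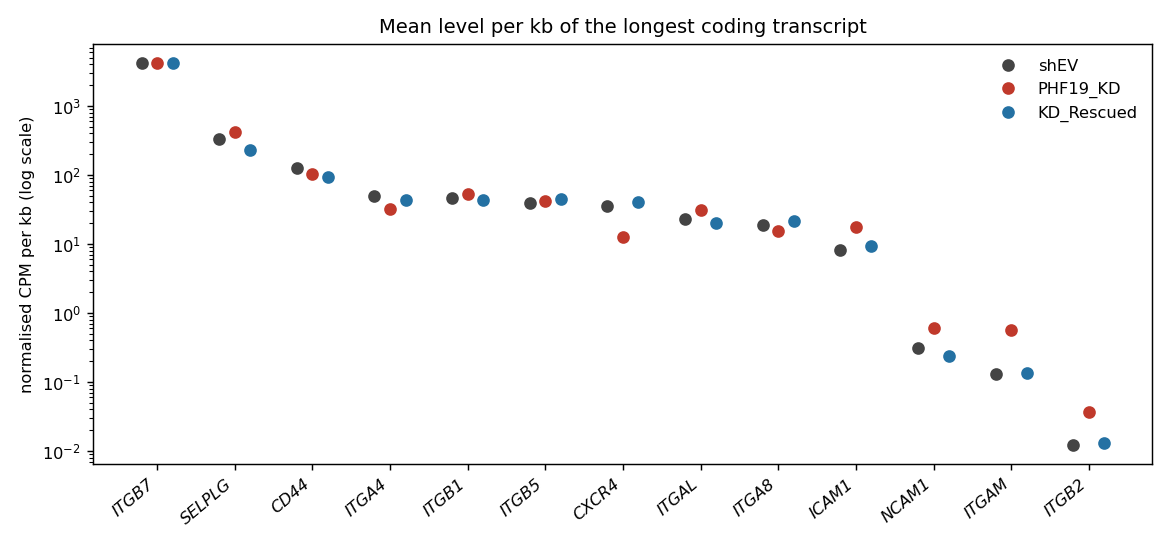
Mean normalised CPM per kb of the longest coding transcript, on a log scale, for the 10 members and for the integrin chains ITGB7, ITGB5 and ITGA8, with 1 point per group. ITGB7 is at 4156 to 4189 CPM per kb in all 3 groups, while ITGB2 is below 0.04 CPM per kb in all 3.

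Among the 21 other integrin chains the β7 gene stood far above every member. ITGB7, which pairs with α4 or αE, stood at 11921 CPM in shEV, 11916 in PHF19_KD and 12010 in KD_Rescued, or 4158 ± 487 CPM per kb in shEV (SD, n = 3), with log2 fold changes of -0.00 ± 0.07 in PHF19_KD against shEV and 0.01 ± 0.08 in KD_Rescued against PHF19_KD that were not called (edgeR adjusted p = 0.995 and 0.913). It is named because of its level, which was seen first. Its other partner, αE (ITGAE), changed by -0.85 in PHF19_KD against shEV (edgeR adjusted p = 9.17e-06) and is likewise named outside the rule. Of the 13 chains tested, 5 rose and 4 fell in PHF19_KD, with a median of 0.07. The share called was 69.2%, which is the level of all genes (69.1%). Across the 7 related lists this share ran from 66.7% to 91.7% in PHF19_KD against shEV, and from 61.1% to 91.7% in KD_Rescued against PHF19_KD beside 63.4% of all genes, so the counts of calls below describe the lists and do not set them apart. In this and the following lists the genes named are those with a mean log2 CPM of at least 1 unless stated. The larger rises were those of the laminin-binding chain ITGA3 (23.3 to 77.5 CPM, 1.73 ± 0.08 on the log2 scale, SE) and ITGA7 (1.64 to 5.03 CPM), and the larger falls those of ITGB8 (14.8 to 4.81 CPM, -1.62 ± 0.10), which activates latent TGF-β, and ITGA6 (15.4 to 5.81 CPM). Below that level ITGA5, whose α5 chain makes a fibronectin receptor with β1, was at 0.108 CPM in shEV, 1.03 in PHF19_KD and 0.146 in KD_Rescued (3.23 ± 0.52 and -2.75 ± 0.54, edgeR adjusted p = 0.000146 and 0.000754), and it was named after its values were seen. After rescue 4 rose and 5 fell against PHF19_KD, with ITGB8 (1.29 ± 0.11) and ITGA6 (0.94 ± 0.11) among the rises and ITGA7 (-1.78 ± 0.25) and ITGA3 (-1.41 ± 0.09) among the falls. ITGB8 counts were fractional in 8 libraries.

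Among integrin activators and adhesion complex genes there were 10 rises and 11 falls among 28 tested of 32, with a median of -0.08, in PHF19_KD against shEV, or 75% called beside 69.1% of all genes. VCL, which couples talin to actin, went from 13.0 to 33.6 CPM (1.37 ± 0.09, log2 and SE), and SKAP1, an adaptor for LFA-1 activation, from 38.9 to 77.7 CPM. APBB1IP, the Rap1 effector that recruits talin to integrins, went from 19.6 to 7.91 CPM (-1.32 ± 0.09), and ITGB1BP1, a binding partner of the β1 tail, from 89.7 to 54.1 CPM. BCAR1, a docking protein of focal adhesions, changed more on the log2 scale at a very low level (0.238 to 1.41 CPM, 2.53 ± 0.41) and was named after its values were seen. After rescue 12 rose and 8 fell. The kinase gene SRC changed by -2.31 ± 0.12 and VCL by -1.53 ± 0.10, while APBB1IP rose by 0.77 ± 0.10. FERMT2, a kindlin gene, was called as higher at 0.85 ± 0.34 (edgeR adjusted p = 0.0461), which was lost under most alternatives tried, DESeq2 among them.

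Of 12 tested ligands and counter-receptors of 21, 6 rose and 5 fell in PHF19_KD against shEV, with a median of -0.21. ICAM3, a relative of ICAM1 that binds LFA-1, went from 223 to 368 CPM (0.72 ± 0.09, log2 and SE) with fractional counts in all 9 libraries, and was named after its values were seen. ICAM5 went from 1.36 to 5.30 CPM (1.98 ± 0.22, log2 and SE). Among the falls were THBS1 (3.11 to 0.554 CPM, -2.48 ± 0.29) and JAM3 (3.02 to 0.918 CPM, fractional counts in 8 libraries). ICAM2, a second LFA-1 ligand with fractional counts in all 9 libraries, fell after rescue by 1.16 on the log2 scale. FN1, the fibronectin gene, was 2.52-fold higher in KD_Rescued than in shEV (1.33 ± 0.09). CXCL12, the ligand of CXCR4, was near the limit of detection at means of 0.845 CPM in shEV, 0.0276 in PHF19_KD and 0.584 in KD_Rescued. It was called as lower in PHF19_KD (edgeR adjusted p = 0.000165) and as higher after rescue (edgeR adjusted p = 0.00103), and was named after its values were seen. VCAM1, the endothelial and stromal ligand of VLA-4, and SELE, the E-selectin gene, had 0 counts in all libraries.

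Among 18 tested chemokine receptor and CXCR4 signalling genes of 27, 4 rose and 8 fell in PHF19_KD against shEV, with a median of -0.23. CXCR3 went from 8.35 to 1.46 CPM (-2.52 ± 0.18, log2 and SE) and RGS16, a regulator of G protein signalling, from 23.4 to 10.9 CPM (-1.11 ± 0.08). RGS1, which dampens chemokine receptor signalling, went from 31.3 to 162 CPM (2.38 ± 0.08), and CD74, the invariant chain, from 1736 to 3234 CPM (0.90 ± 0.04). After rescue 7 rose and 4 fell, among them CXCR3 (1.61 ± 0.21) and RGS16 (1.28 ± 0.08) as rises and RGS1 (-1.94 ± 0.08) as a fall. CXCR3, RGS16 and RGS1 thus each moved back toward shEV, as CXCR4 did. ACKR3, the second receptor for CXCL12, had 0 counts in all libraries.

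Of 18 tested immunoglobulin-family, cadherin and tetraspanin genes of 23, 9 rose and 4 fell in PHF19_KD against shEV, with a median of 0.38. PECAM1 went from 13.7 to 39.7 CPM (1.53 ± 0.06, log2 and SE) and MCAM from 2.17 to 4.40 CPM, while ALCAM went from 41.5 to 23.5 CPM (-0.81 ± 0.07) and the N-cadherin gene CDH2 from 24.9 to 14.3 CPM. After rescue 4 rose and 8 fell, with CADM1 at -1.38 ± 0.05 among the falls and CDH2 at 0.78 ± 0.08 among the rises. PECAM1 was still 2.01-fold above shEV in KD_Rescued.

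The enzymes that build selectin ligands and polysialic acid, which act on PSGL-1 and NCAM1, were split. In PHF19_KD against shEV 6 of 13 tested genes of 14 rose and 4 fell, with a median of -0.09. ST8SIA2, a polysialyltransferase of NCAM1, went from 12.5 to 0.322 CPM (-5.26 ± 0.22, log2 and SE) and back to 5.50 CPM after rescue, whereas its paralog ST8SIA4 went from 61.4 to 97.8 CPM (0.67 ± 0.05) and back to 54.5 CPM. The galactosyltransferase gene B4GALT1 rose (74.2 to 119 CPM) and C1GALT1, which extends O-glycans, fell (68.6 to 38.9 CPM). After rescue 5 rose, FUT4 by 1.13 ± 0.16 among them, and 5 fell. FUT7, the leukocyte fucosyltransferase of selectin ligands, had 0 counts in all libraries.

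Among genes around CD44, the largest change at a substantial level was that of HMMR. In PHF19_KD against shEV 3 of 11 tested genes of 14 rose and 6 fell, with a median of -0.17. HMMR, a hyaluronan receptor that is also a mitotic spindle protein, went from 70.8 to 12.6 CPM (-2.49 ± 0.08, log2 and SE) and the splicing regulator gene ESRP1 from 8.04 to 3.79 CPM (-1.09 ± 0.15). Its paralog ESRP2, at 0.0790 CPM in shEV, was called as higher in PHF19_KD at 0.710 CPM and was named after its values were seen. The hyaluronidase genes HYAL2 (15.8 to 23.1 CPM) and HYAL3 (0.61 ± 0.19, to 3.04 CPM, fractional counts in all 9 libraries) rose, the latter no longer with DESeq2, without a filter or without PHF19_KD replicate 2. After rescue 4 rose and 3 fell, HMMR by 2.48 ± 0.08 and the CD44 linker gene EZR by 0.66 ± 0.05 among the rises. ESRP1 stayed 2.08-fold below shEV in KD_Rescued.

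**Figure D5:**
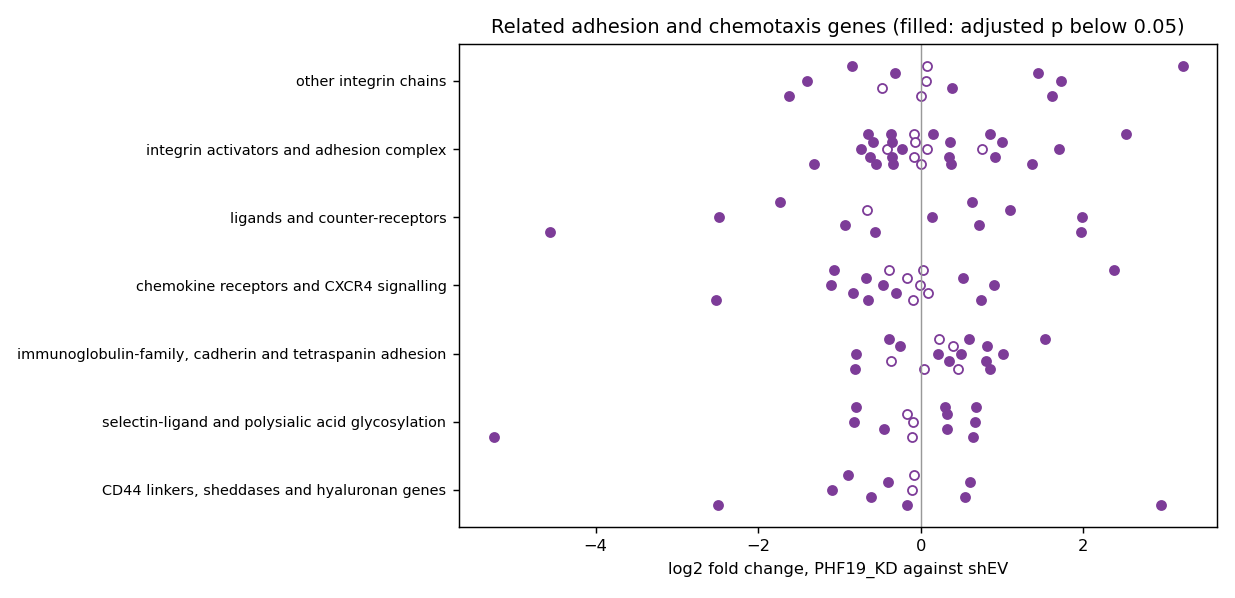
Log2 fold changes between PHF19_KD and shEV for the tested genes of 7 related lists, with 1 point per gene and filled points where the adjusted p was below 0.05. Genes lie on both sides of 0 in every list, with ST8SIA2 at -5.26 the farthest to the left.

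In KD_Rescued against shEV, where 39.8% of all genes were called, the same lists gave 3 rises and 4 falls among 13 tested integrin chains, 3 and 8 among 28 activators and 4 and 2 among 12 ligands. There were 3 and 7 among 18 chemokine receptor genes, 4 and 4 among 18 immunoglobulin-family, cadherin and tetraspanin genes, 0 and 4 among 13 glycosylation enzymes and 0 and 3 among 11 genes around CD44. The share called was 53.8%, 39.3%, 50%, 55.6%, 44.4%, 30.8% and 27.3% in that order, above and below the share of all genes. PARVG (1.14 ± 0.11, log2 and SE), CCR2 (0.81 ± 0.09) and CD81 (1.21 ± 0.22) were among the rises, and SRC (-1.39 ± 0.12), ITGB4 (-0.73 ± 0.13) and CCR1 (-0.61 ± 0.05) among the falls. Of the fibroblast and stroma markers PDGFRB (2.02 ± 0.219 to 7.65 ± 0.398 CPM) and COL1A1 (0.579 ± 0.204 to 2.54 ± 0.284 CPM) were also higher in PHF19_KD than in shEV (SD, n = 3 each). The summed level of that list of 6 was 9.89 to 10.6 CPM in PHF19_KD, 2.53 to 2.78 in shEV and 0.957 to 1.54 in KD_Rescued, with PDGFRA and LUM at 0 and COL1A2 and DCN at no more than 1 count in any library. The epithelial list of 5 stood at 0.759 to 1.29 CPM in PHF19_KD and 0.285 to 0.836 CPM in shEV. The part of these markers in the results was not tested.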

How the data were processed

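RNA from 9 MM1S libraries was made into libraries with an Illumina TruSeq kit, per the labels' protocols. The authors' deposited table holds estimated counts per gene, whose column totals differ from library to library. The submitters' processing notes name CASAVA, RSEM and hg19 without roles or versions, and the deposited table is named for salmon, so which program made the counts is not settled. The sources used here do not give the annotation, filters or strand setting, so reads of overlapping or antisense genes cannot be told apart. Counts within 0.01 of a whole number were taken as whole.

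Groups follow the titles in the labels. Counts were rounded and fitted with edgeR 4.0.16 (R 4.3.3) over the 8 undisputed libraries: TMM scaling after filterByExpr by group, then glmQLFit with robust dispersions and glmQLFTest, with Benjamini-Hochberg adjustment over the 16600 genes left. Each standard error is the absolute log2 change over the root of the F statistic. Normalised CPM divide by the total over tested genes times its TMM factor. For ITGB2, exact Poisson intervals at 95% were used, and intervals cover counting error only. Counts with known changes between PHF19_KD and shEV were also simulated and fitted in the same way. The fit called 28% of 1.25-fold, 46% of 1.5-fold, 66% of 2-fold and 86% of 4-fold changes in the right direction. Of the genes called there, 8.87% had no added change. The changed genes were drawn at random from those that passed the filter, so these shares do not describe single members. The other comparisons were not simulated.

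Every member was named. From each related list, the 2 called rises and 2 called falls largest in log2 fold change were named per comparison, if their mean log2 CPM reached 1 and with no overlap between groups, and the text gives a part of these, with 1 gene of the ligand list not reported here. The members and lists were chosen with earlier results of these data known. Alternatives were DESeq2 1.42.0, limma-voom (limma 3.58.1), other scalings and filters, each replicate left out, a replicate block, fewer groups in the fit and both readings of the disputed library. Removal of mitochondrial genes and another transcript length were chosen after seeing the data. Replicates of a group differed by more than counting noise (chi-square per degree of freedom 1.37 to 9.15), so each library was counted separately. The pairs with shEV replicate 3 gave 8.14 and 9.15, and the highest of the other pairs was 2.25. Such an excess does not show that the replicates were grown separately.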

Additional observations from a re-analysis of the deposited data

Results flagged for a closer look

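The disputed library was left out of the main comparisons and counted in a group only in the alternatives, and 6 members stood above all 3 shEV libraries in it. ITGB1 was at 222 CPM, against a highest control value of 182. ITGAL was at 139 CPM, against 126. ITGAM was at 2.56 CPM, against 0.708, and ICAM1 at 55.3 CPM, against 26.6. NCAM1 was at 3.35 CPM, against 2.06. SELPLG was at 794 CPM, against 792, a gap smaller than the SD of the shEV libraries. With 1 library there is no replicate and no test. The share of all tested genes that stood above the shEV libraries there was not computed, so the count does not set the members apart.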

How the results depend on the processing

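In PHF19_KD against shEV the 9 tested members kept their direction under every alternative tried, and 9 were called in each fit that left out 1 library. Upper-quartile scaling moved the median over all tested genes by 0.16 (log2) in PHF19_KD against shEV and by -0.15 in KD_Rescued against PHF19_KD. Relative to that median ITGB1 stood at 0.15 in PHF19_KD against shEV with both scalings. A share of 50.5% of called genes was higher in PHF19_KD than in shEV, and 60.6% with upper-quartile scaling. For KD_Rescued against PHF19_KD these shares were 53.4% and 42.1%.

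In KD_Rescued against PHF19_KD, counting the disputed library as KD_Rescued left 5 members and 6207 genes called, in place of 9 and 10526. Leaving out 1 library gave 8 to 9 members and 9013 to 11322 genes. In KD_Rescued against shEV the counts were 6 members and 6599 genes, and 2 and 4047 with the disputed library as PHF19_KD, 1 and 2464 with it as KD_Rescued, and 3 to 6 and 4048 to 7539 with 1 library left out. The lowest came without KD_Rescued replicate 2. The lone rescued library was then assumed to vary like the other groups. With DESeq2, RLE scaling or only those groups in the fit, 4 members were called, all lower.

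In that comparison ITGB1 (0.041), CXCR4 (-0.12) and NCAM1 (0.022) changed sign with the disputed library as KD_Rescued, and ITGAM without shEV replicate 2 (-0.10, the lowest of a range to 0.17 with 1 library left out). The cause was not tested.

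Same-numbered shEV and PHF19_KD libraries did not deviate together (r = 0.01, 0.01 and 0.03). Whether same-numbered libraries were prepared together cannot be told from these values. With a replicate block 9, 9 and 6 members and 11537, 10341 and 6387 genes were called in the order of the report. Low counts limit ITGAM and NCAM1, and depth leaves ITGB2 without a test. A filter at 5 CPM removed ITGAM and NCAM1.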
